A study of Mus musculus with 14 samples.

Results

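The AP-1 and immediate early transcription factors were 10 genes of the 19938 measured, chosen by name as short-lived transcripts with AU-rich 3′ ends. They were the Fos family (Fos, Fosb, Fosl1, Fosl2), the Jun family (Jun, Junb, Jund), Egr1, Atf3 and Ier3. All 10 were on the array, each with exactly 1 probe set annotated to that gene alone. Expression was measured in 4T1, a mouse mammary tumor cell line, on 14 arrays. There were 3 samples of CNOT7 over-expression cells, which carried human FLAG-tagged CNOT7 driven by a murine Pol2 promoter, and 3 samples of vector control cells. There were also 2 samples with the hairpin sh74 against Cnot7, 3 with the hairpin sh75 and 3 with shScramble, a scrambled hairpin. All lines carried a lentiviral vector, selected with blasticidin in the over-expression arm and with puromycin in the hairpin arm. Whether each line was a clone or a pool, and whether replicates were separate cultures, was not given in the sources used here, so the p-values measure the spread between these samples only.

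AP-1 is a dimer of a Jun family protein with another Jun protein or with a Fos or ATF family protein, and it binds DNA at the sequence TGANTCA or at related sites. Its genes are classic immediate early genes: growth factors and stress switch on their transcription through MAP kinases within minutes, and their mRNAs are then removed quickly. AU-rich elements in the 3′ end of many of these mRNAs are bound by proteins such as ZFP36, which recruits the CCR4-NOT complex, and CNOT7 is a subunit of that complex that shortens the poly(A) tail. The comparisons below ask whether the steady level of these short-lived mRNAs differed when Cnot7 was raised or lowered. Values are RMA log2 intensities, on which a difference of 1 is a doubling, and levels of different genes are not compared because probes differ in brightness.

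Mouse Cnot7 was 10.64, 10.02 and 10.08 in CNOT7 over-expression cells, against 10.07, 10.52 and 10.15 in vector control cells. The probes were designed for mouse RNA and need not see the human cDNA, so the array gave no check of over-expression. Cnot7 was 8.71 and 9.33 with sh74 and 7.52, 8.51 and 8.07 with sh75, against 10.44, 10.33 and 10.20 with shScramble. The mean level left was 40.4% with sh74 and 20.4% with sh75, and the hairpin samples lay 1.90 below shScramble (log2 difference -1.90, two-sided exact permutation test, p = 0.0357, the smallest that 5 against 3 samples allow by this calculation). All 5 hairpin samples lay below all 3 shScramble samples.

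The samples differed in epithelial character within the groups. Esrp1, an epithelial splicing factor, was between 9.73 and 11.01 in 9 samples and between 5.21 and 6.50 in the other 5, with no value in between. The 5 low samples were 1 of 3 CNOT7 over-expression, 0 of 3 vector control, 1 of 2 sh74, 2 of 3 sh75 and 1 of 3 shScramble samples. A score, the mean of 11 mesenchymal markers minus the mean of 10 epithelial markers after centering each gene, ranged from -1.62 to 1.76. It averaged 0.20 (range -0.97 to 1.26) in CNOT7 over-expression and -0.25 (range -1.08 to 0.29) in vector control cells. It averaged 0.08 (range -1.60 to 1.76) with sh74 and 0.50 (range -0.84 to 1.34) with sh75, against -0.50 (range -1.62 to 1.11) with shScramble. In a bulk sample fewer cells of a type and less RNA per cell cannot be told apart. All 10 epithelial markers and 9 of 11 mesenchymal markers exceeded 4.89, the 90th percentile of olfactory receptor probe sets, with Cdh2 and Snai2 below it. In the lists of other cell types, 3 of 7 immune, 3 of 6 endothelial, 5 of 7 fibroblast, 5 of 6 basal and 3 of 4 adipocyte markers exceeded it too. Those below it were Ptprc, Adgre1, Itgam and Lyz2 of the immune list, Pecam1, Tek and Emcn of the endothelial, Dcn and Lum of the fibroblast, Oxtr of the basal and Fabp4 of the adipocyte list. The mean over a list differed little between samples, from 5.38 to 5.65 for immune, 4.85 to 4.99 for endothelial, 5.65 to 5.99 for fibroblast, 5.50 to 6.13 for basal and 4.88 to 5.05 for adipocyte markers.

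No member passed the test in any of 7 comparisons (limma on all 21789 probe sets, adjusted p under 0.05). In CNOT7 over-expression against vector control the call rate over all probe sets was 0%, so the test picked out no gene at all. It was 0.00918% for sh74, 0.0918% for sh75 and 0.0184% for the mean of both hairpins, each against shScramble. It was 0% for the over-expression change minus the hairpin change, 0.0413% for CNOT7 over-expression against both hairpins and 0% for vector control against shScramble. At an unadjusted p under 0.05, 0 members were found for over-expression (2.58% of all probe sets), sh74 (7.33%), sh75 (8.26%), both hairpins (7.3%) and vector control against shScramble (3.7%). Fosb was the 1 member found for the over-expression change minus the hairpin change (3.49%) and for CNOT7 over-expression against both hairpins (10%). The methods' t-test at the same unadjusted threshold found 0 members for CNOT7 over-expression against both hairpins (6.79%), and Egr1 and Ier3 for vector control against shScramble (4.51%). The 1 member beside 3.49% and the 2 members beside 4.51% exceed their shares. Counts of 0 to 2 among 10 members are too small to be read as a result. The 95% intervals of the changes were wide for Jun, Egr1 and Atf3, reaching for sh75 from -0.43 to 1.57, from -0.44 to 1.96 and from -1.76 to 0.29.

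**Figure D1:**
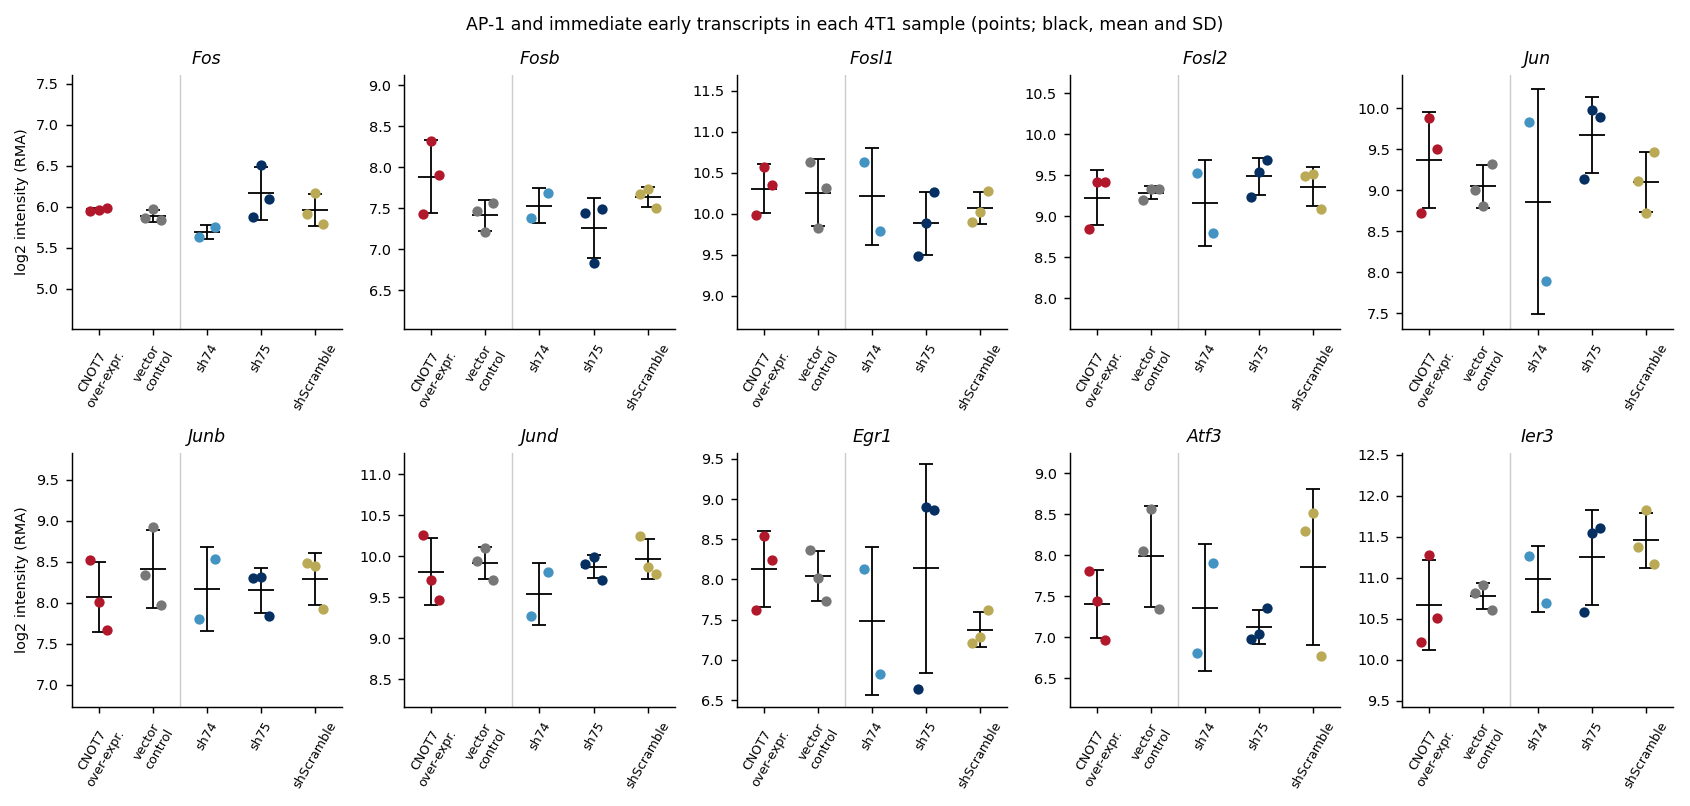
Log2 intensity (y axis) of each of the 10 members in every sample, by group (x axis), with the group mean and SD in black (n = 3, and n = 2 for sh74). The y axes span different levels, and for Jun, Egr1 and Atf3 the samples of 1 group lie far apart.

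The Fos family encodes the partners of Jun proteins that cannot pair with each other. Fos (chromosome 12) was 5.95, 5.97 and 5.99 in CNOT7 over-expression cells, against 5.86, 5.97 and 5.84 in vector control cells. It was 5.64 and 5.75 with sh74 and 5.88, 6.52 and 6.09 with sh75, against 5.91, 6.17 and 5.80 with shScramble. Both sh74 samples lay below all shScramble samples, as in 22% of all probe sets for that comparison, whereas the sh75 samples overlapped them. The change was 0.08 ± 0.14 (SE) with over-expression, -0.27 ± 0.16 with sh74 and 0.20 ± 0.14 with sh75 (limma, adjusted p of 0.9999, 0.786 and 0.764).

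Fosb (chromosome 7), a close relative of Fos, came nearest to a difference between the arms. It was 7.42, 8.32 and 7.91 in CNOT7 over-expression cells, against 7.46, 7.21 and 7.56 in vector control cells. It was 7.38 and 7.68 with sh74 and 7.44, 6.83 and 7.49 with sh75, against 7.67, 7.74 and 7.50 with shScramble. In the over-expression arm 1 sample overlapped the controls, and with sh75 all samples lay below shScramble, as in 13.5% of all probe sets. The change was 0.47 ± 0.23 (SE) with over-expression, -0.11 ± 0.25 with sh74 and -0.38 ± 0.23 with sh75. The over-expression change exceeded the hairpin change by 0.71 ± 0.30 (95% interval 0.05 to 1.38, unadjusted p = 0.0379, limma adjusted p = 0.9996). CNOT7 over-expression cells lay 0.49 ± 0.20 above both hairpins (unadjusted p = 0.0344, limma adjusted p = 0.453), with samples that overlapped.

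Fosl1 and Fosl2 encode Fra-1 and Fra-2, Fos proteins without the strong activation domain of Fos. Fosl1 (chromosome 19) was 9.98, 10.57 and 10.35 in CNOT7 over-expression cells, against 10.64, 9.82 and 10.32 in vector control cells. It was 10.63 and 9.79 with sh74 and 9.49, 9.89 and 10.26 with sh75, against 9.90, 10.03 and 10.28 with shScramble. The groups overlapped, with changes of 0.04 ± 0.28 (SE) with over-expression, 0.14 ± 0.31 with sh74 and -0.19 ± 0.28 with sh75. Fosl2 (chromosome 5) was 8.84, 9.42 and 9.42 in CNOT7 over-expression cells, against 9.19, 9.32 and 9.33 in vector control cells. It was 9.53 and 8.79 with sh74 and 9.23, 9.54 and 9.68 with sh75, against 9.48, 9.51 and 9.08 with shScramble. These groups overlapped too, and the changes were -0.06 ± 0.21, -0.20 ± 0.24 and 0.12 ± 0.21.

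Jun encodes the core AP-1 subunit c-Jun, the target of JNK. Jun (chromosome 4) was 8.73, 9.88 and 9.51 in CNOT7 over-expression cells, against 9.01, 8.81 and 9.33 in vector control cells. It was 9.83 and 7.90 with sh74 and 9.14, 9.98 and 9.90 with sh75, against 9.11, 8.73 and 9.47 with shScramble. The sh74 samples lay far apart, and one of them held the lowest value of the series. The change was 0.32 ± 0.45 (SE) with over-expression, -0.24 ± 0.51 with sh74 and 0.57 ± 0.45 with sh75. Leaving out 1 sh74 sample gave changes of -1.21 and 0.73 for sh74.

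Junb and Jund encode Jun proteins that activate weakly and can counter c-Jun, and Jund is the least inducible of the family. Junb (chromosome 8) was 8.52, 8.01 and 7.67 in CNOT7 over-expression cells, against 8.34, 8.92 and 7.98 in vector control cells. It was 7.80 and 8.53 with sh74 and 8.31, 8.32 and 7.83 with sh75, against 8.49, 8.45 and 7.92 with shScramble. Its groups overlapped, and the changes were -0.35 ± 0.30 (SE), -0.12 ± 0.33 and -0.13 ± 0.30 for over-expression, sh74 and sh75. Jund (chromosome 8) was 10.26, 9.72 and 9.47 in CNOT7 over-expression cells, against 9.94, 10.11 and 9.71 in vector control cells. It was 9.28 and 9.81 with sh74 and 9.91, 9.99 and 9.72 with sh75, against 10.25, 9.87 and 9.79 with shScramble. One sh74 sample was the lowest of the series, and the change of -0.42 ± 0.23 with sh74 gave Jund the smallest p of the members in that comparison (limma adjusted p = 0.751).

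Egr1 encodes a zinc finger factor of the immediate early response and Atf3 a stress-induced member of the ATF family that pairs with Jun proteins. Egr1 was 7.62, 8.54 and 8.24 in CNOT7 over-expression cells, against 8.37, 8.02 and 7.74 in vector control cells. It was 8.13 and 6.83 with sh74 and 6.64, 8.90 and 8.87 with sh75, against 7.21, 7.29 and 7.62 with shScramble. The sh75 samples held both the lowest and the highest Egr1 values of the series, a 4.78-fold range. The change was 0.09 ± 0.55 (SE) with over-expression, 0.11 ± 0.61 with sh74 and 0.76 ± 0.55 with sh75 (limma adjusted p = 0.772 for sh75). Atf3 (chromosome 1) was 7.80, 7.44 and 6.97 in CNOT7 over-expression cells, against 8.05, 8.56 and 7.34 in vector control cells. It was 6.81 and 7.91 with sh74 and 6.97, 7.03 and 7.36 with sh75, against 8.30, 8.51 and 6.77 with shScramble. The third shScramble sample was the lowest of all 14, so the hairpin groups overlapped the control in spite of changes of -0.50 ± 0.52 with sh74 and -0.74 ± 0.47 with sh75. The mean hairpin change of Atf3 was -0.62 ± 0.42 (limma adjusted p = 0.795), and its change with over-expression was -0.58 ± 0.47.

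Ier3, also called IEX-1, encodes a regulator of cell survival and of ERK signaling. Ier3 (chromosome 17) was 10.22, 11.27 and 10.51 in CNOT7 over-expression cells, against 10.81, 10.91 and 10.60 in vector control cells. It was 11.26 and 10.69 with sh74 and 10.58, 11.55 and 11.61 with sh75, against 11.37, 11.82 and 11.17 with shScramble. The vector control samples all lay below the shScramble samples, while the treated groups overlapped their own controls. The changes were -0.11 ± 0.32 (SE) with over-expression, -0.48 ± 0.36 with sh74 and -0.21 ± 0.32 with sh75.

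**Figure D2:**
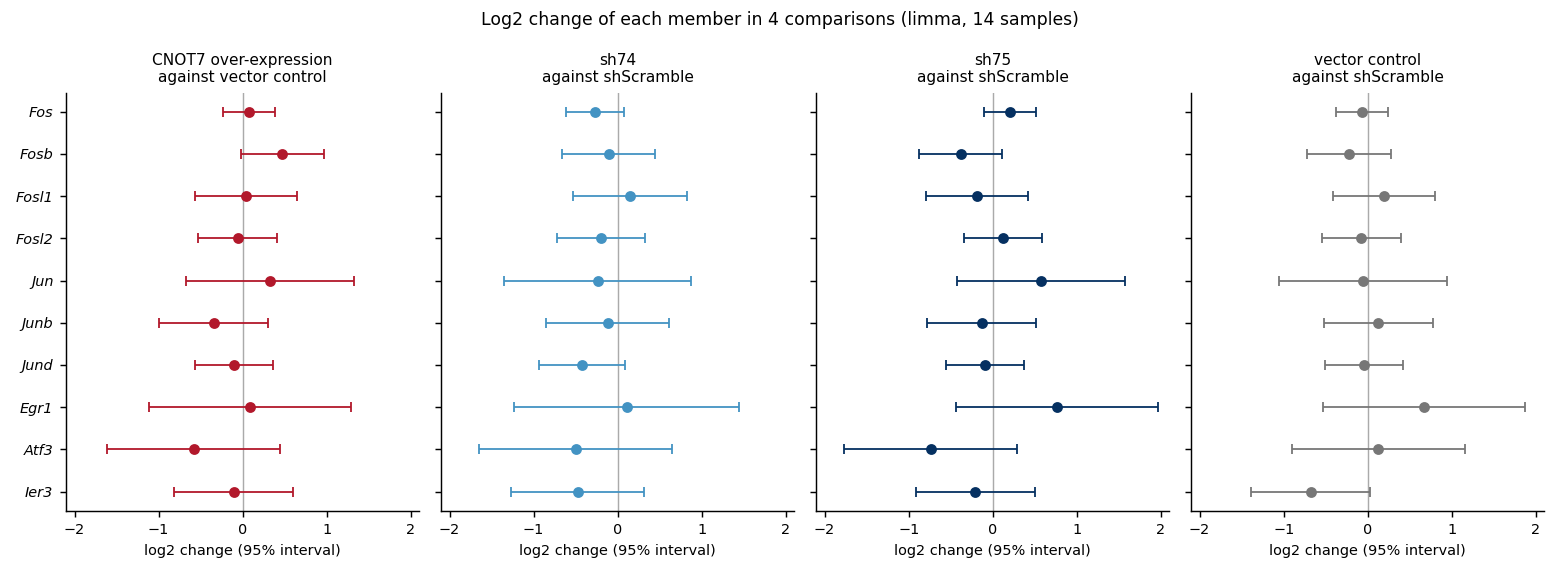
Log2 change (x axis, dot) with its 95% interval (bar) for each member (y axis) in 4 comparisons of the model of 14 samples. All intervals shown include 0, and those of Jun, Egr1 and Atf3 are the widest.

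Across the members as a set, 5 of 10 were higher with over-expression, with a median change of -0.01, beside 53.9% of all probe sets higher and a median of 0.01. With sh74, 2 of 10 were higher and the median was -0.22, beside 51.3% and 0.00 over all probe sets. With sh75, 4 of 10 were higher and the median was -0.11, beside 49.8% and 0.00. The median size of the change, sign aside, was 0.11, 0.22 and 0.20 for the members, beside 0.06, 0.09 and 0.08 over all probe sets. The latter include dim probe sets and were not matched for intensity. The members thus had larger estimates in both directions, and also larger errors. Samples did not overlap between groups for 0 members with over-expression (7.72% of all probe sets), 0 with both hairpins (3.93%) and 0 for CNOT7 over-expression against both hairpins (5.25%). The hairpin comparisons share the shScramble samples, so their values for a member are not independent of each other.

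The 2 control groups lay apart in Egr1 and Ier3. Egr1 averaged 8.04 ± 0.32 in vector control and 7.37 ± 0.22 in shScramble cells (SD, n = 3 each), and Ier3 averaged 10.77 ± 0.16 in vector control and 11.45 ± 0.33 in shScramble cells. Both genes had samples that did not overlap, as 9.74% of all probe sets did. The differences of 0.67 ± 0.55 (SE) for Egr1 and -0.68 ± 0.32 for Ier3 did not pass (limma adjusted p = 0.99999 for each). The vector and the selection agent differ between the controls, and their parts in the difference cannot be told apart.

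The members spread widely within groups. The pooled within-group SD had a median of 0.39 over the members, beside 0.13 over all probe sets. Set against probe sets of like mean intensity (within 0.5), Ier3 (SD 0.43), Jun (0.61), Egr1 (0.74) and Atf3 (0.63) lay above the 95th percentile of spread, where the like probe sets had medians of 0.16, 0.20, 0.22 and 0.22. Fosl1 (0.37) and Junb (0.40) lay at the 92.5th and 88.4th percentile, and Fos (0.18), Fosb (0.30), Fosl2 (0.28) and Jund (0.28) between the 71.8th and 79.3rd. Over the 14 samples 7 of 10 members spanned at least 1 log2 unit, as did 16.0% of all probe sets, dim ones included. The groups accounted for a median of 25.0% of the members' variance, beside 32.0% over all probe sets and 30.8% that 5 groups of these sizes give with no difference. The spread is described here and was not tested.

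**Figure D3:**
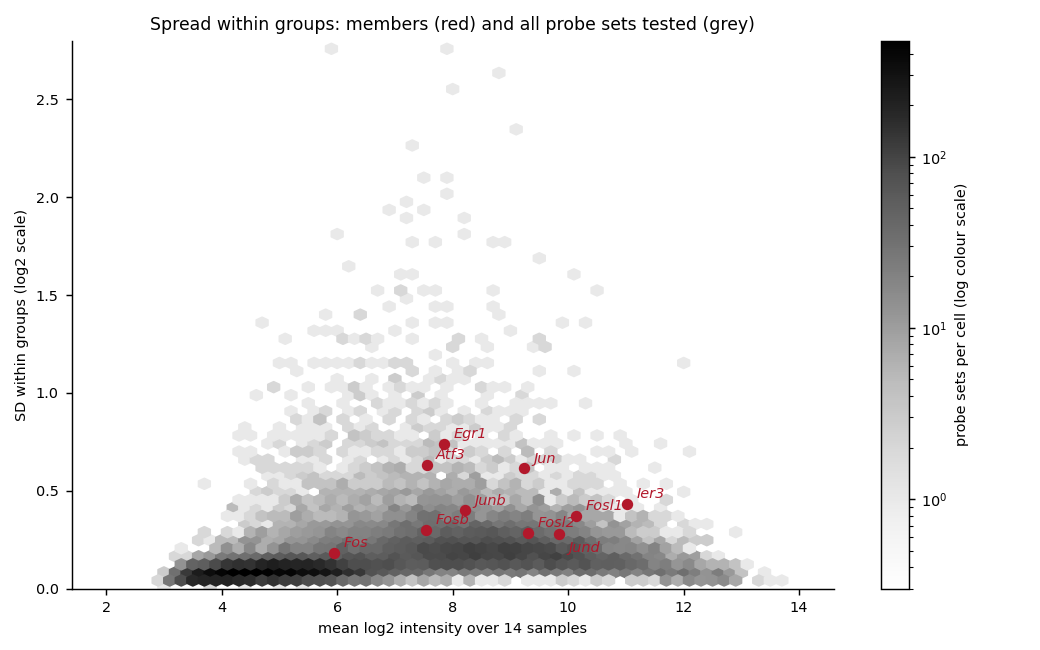
Pooled SD within groups (y axis, log2 scale) against mean log2 intensity over the 14 samples (x axis) for all 21789 probe sets (grey, darker for more) and the members (red). Egr1, Atf3, Jun and Ier3 lie above the dense part of the cloud at their intensity, with fewer probe sets of larger spread above them.

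Part of this variation ran with the epithelial and mesenchymal markers, and in opposite directions for different members. Jun, Egr1 and Fosl1 were higher in samples of high score (more mesenchymal), and Junb, Atf3 and Jund were lower. Pearson's r over the 14 samples was 0.86 for Jun (two-sided permutation test, unadjusted p = 5e-05), -0.81 for Junb (0.0007), -0.79 for Atf3 (0.00132), 0.70 for Egr1 (0.00596), -0.65 for Jund (0.0116) and 0.62 for Fosl1 (0.0196). Spearman's rho was 0.89, -0.83, -0.83 and 0.67 for Jun, Junb, Atf3 and Egr1, and -0.56 and 0.53 for Jund and Fosl1, of which the last had an unadjusted p of 0.0575. For Fosl2 r was 0.45 (permutation p = 0.106), and it was 0.18 for Ier3, -0.15 for Fosb and 0.07 for Fos. The members' median size of r was 0.63, beside 0.27 over all probe sets. The value over all probe sets includes dim ones and was not matched for mean intensity.

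The slope on the score was then fitted across all 21789 probe sets with the group means held (limma). Of the members, 4 of 10 passed, beside 5.01% of all probe sets, again not matched for intensity. Per unit of the score, Jun was higher by 0.41 ± 0.065 (SE; limma adjusted p = 0.00847) and Fosl1 by 0.22 ± 0.053 (0.0399). Junb had a slope of -0.25 ± 0.054 (limma adjusted p = 0.0291) and Atf3 of -0.38 ± 0.090 (0.0394). Egr1 (0.40 ± 0.12, 0.0849) and Jund (-0.15 ± 0.047, 0.108) did not pass. Without either sh74 replicate 0 members passed, and the share over all probe sets fell to 1.68%, with slopes of 0.32 for Jun, 0.21 for Fosl1, -0.26 for Junb and -0.40 for Atf3. Those 2 refits are the same fit by construction, because the group mean takes up the lone sh74 sample. Without CNOT7 over-expression replicate 1 only Jun passed (4.19% over all probe sets).

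After the group means were subtracted, r was 0.90 for Jun, -0.82 for Junb, -0.79 for Atf3, 0.73 for Egr1, -0.71 for Jund and 0.80 for Fosl1. Taken group by group, as a description of 2 or 3 samples each, Jun and Fosl1 had a positive slope on the score in 5 of 5 groups and Junb and Jund a negative one in 5 of 5. Egr1 had a positive slope in 4 groups and a slope of -0.05 in vector control, and Atf3 a negative slope in 4 groups and a slope of 0.09 with sh75. Without the 2 samples farthest from the median score, which were those of lowest score (sh74 replicate 2 and shScramble replicate 2), r was 0.83 for Jun, -0.81 for Junb, -0.75 for Atf3, 0.60 for Egr1, -0.80 for Jund and 0.60 for Fosl1. Without the lowest and the highest score it was 0.84, -0.79, -0.71, 0.72, -0.59 and 0.56 for the same genes in that order. Since Esrp1 split the samples, r was also computed in the 9 samples of high Esrp1 alone, as a description chosen after the data were seen. It was 0.79 for Jun, -0.73 for Junb, 0.69 for Egr1, 0.75 for Fosl1, -0.51 for Atf3 and -0.40 for Jund. The 5 samples of low Esrp1 were too few for the same. In the vector and over-expression samples r was 0.77 for Jun, -0.95 for Junb and -0.85 for Atf3. It was 0.48 for Egr1, -0.96 for Jund and 0.70 for Fosl1. In the hairpin and shScramble samples the values were 0.88, -0.84, -0.79, 0.80, -0.53 and 0.68, in that order of genes.

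**Figure D4:**
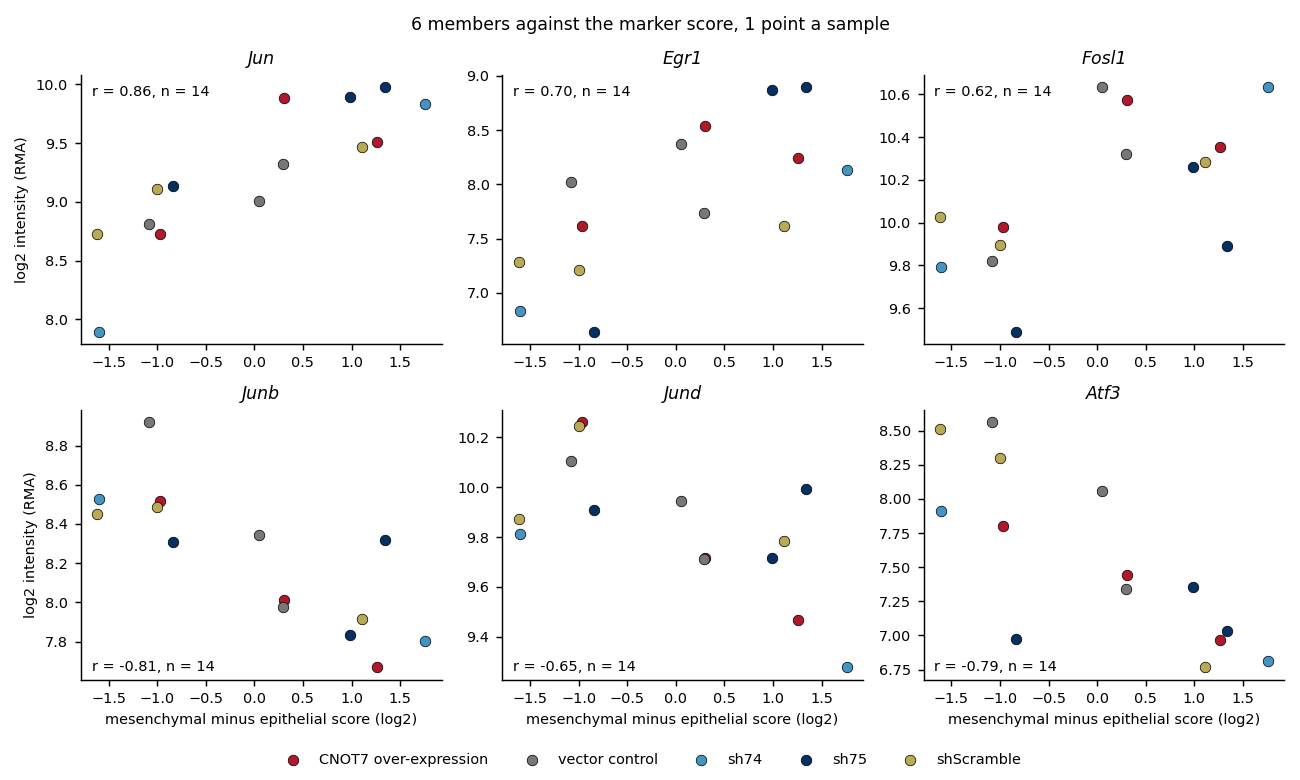
Log2 intensity (y axis) of 6 members against the mesenchymal minus epithelial score (x axis, log2), 1 point a sample, colored by group. Jun, Egr1 and Fosl1 are higher to the right, Junb, Jund and Atf3 lower, and each color is spread along the axis.

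The sh74 samples lay at both ends of the score. The sh74 sample with the score of 1.76 had Jun at 9.83, Egr1 at 8.13, Junb at 7.80 and Atf3 at 6.81. The sh74 sample with the score of -1.60 had Jun at 7.90, Egr1 at 6.83, Junb at 8.53 and Atf3 at 7.91. Of the shScramble samples, the one with the score of 1.11 had the highest Jun (9.47) and Egr1 (7.62) of its group and the lowest Junb (7.92) and Atf3 (6.77). Atf3 did not follow the score in the sh75 samples, with 6.97 at the score of -0.84, 7.03 at 1.34 and 7.36 at 0.99. In vector control cells Egr1 was 7.74 at the score of 0.29, 8.37 at 0.05 and 8.02 at -1.08. The group means of the score given above also differed between sh75 and shScramble. With the score held in the model, the changes with sh75 were 0.16 ± 0.22 (SE) for Jun, 0.36 ± 0.41 for Egr1 and -0.36 ± 0.31 for Atf3, each smaller than without it. Other changes were larger with the score held: Fosl1 with sh75 was -0.41 ± 0.18 (unadjusted p = 0.0478, limma adjusted p = 0.631), against -0.19 without it, Ier3 with sh75 -0.31, against -0.21, and Jun with sh74 -0.48, against -0.24. No member passed in any comparison with the score held (limma). Fosb was little altered, at 0.48 ± 0.23 with over-expression and -0.35 ± 0.24 with sh75. The model holds a common slope on the score for all groups. For Fosb, r with the score was 0.68 in the vector and over-expression samples and -0.68 in the hairpin and shScramble samples.

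Members were next compared with each other over the 14 samples, in 45 pairs. By Pearson's r, 5 pairs passed (permutation test, adjusted over the pairs), and all 5 were positive. They were Junb with Jund (0.81, adjusted p = 0.0166), Junb with Atf3 (0.79, 0.0247), Jun with Egr1 (0.72, 0.0342), Fosl2 with Jun (0.72, 0.0342) and Fosl2 with Ier3 (0.71, 0.0342). By Spearman's rho the first 3 of these passed (0.82, 0.82 and 0.74 with adjusted p of 0.0155, 0.0155 and 0.0449) together with Jun and Junb, which ran in opposite directions (rho = -0.75, adjusted p = 0.0415; r = -0.68, adjusted p = 0.0514). Fosl2 with Jun (rho = 0.64, 0.105) and Fosl2 with Ier3 (0.71, 0.0546) did not pass by rank. Without the 2 samples farthest from the median of the first gene, Fosl2 with Jun dropped to r = 0.41. Junb with Jund (0.78), Junb with Atf3 (0.70), Jun with Egr1 (0.58) and Fosl2 with Ier3 (0.61) kept r above 0.5. Leaving out these samples narrows the range of the first gene, so the drop alone does not show what a relation rested on. Without 1 sample, r of Fosl2 with Jun ranged from 0.55 to 0.82. With group means subtracted, r was 0.90 for Junb with Jund, 0.79 for Junb with Atf3 and 0.74 for Jun with Egr1. It was 0.72 for Fosl2 with Jun and 0.76 for Fosl2 with Ier3. Junb with Jund passed in all 14 refits that left out a sample, and Junb with Atf3 in 12, missing without vector control replicate 2 or sh74 replicate 1. Jun with Egr1, Fosl2 with Jun and Fosl2 with Ier3 missed the threshold in 9, 9 and 10 of these refits. Fos, Fosb and Fosl1 passed with no other member. For Fos with Fosb r was -0.33 but rho was 0.01, and r was 0.15 without the 2 samples farthest from the median of Fos.

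**Figure D5:**
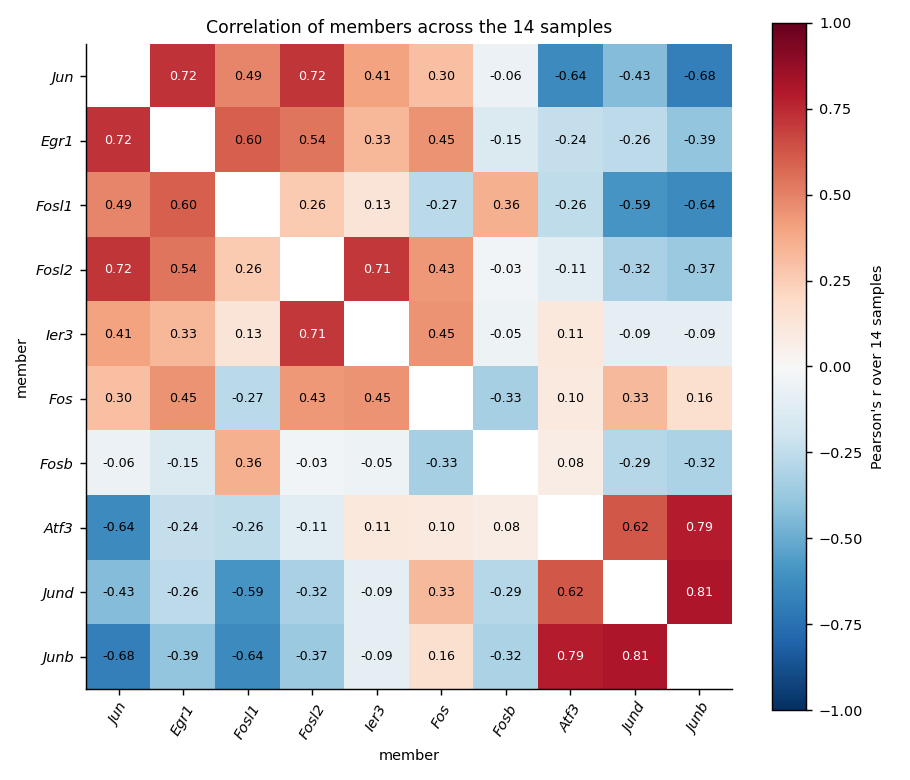
Pearson's r over 14 samples for each pair of members (red positive, blue negative), with Jun and Egr1 at one end and Junb and Atf3 at the other. The corner with Atf3, Jund and Junb holds r of 0.62 to 0.81, and Jun has r of -0.64 with Atf3 and -0.68 with Junb.

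The genes most like each member over the 14 samples were taken among 10227 genes with a mean of at least 6, as a description. For Jun they were Cpd (r = 0.90), Vim (0.89) and Zeb2 (0.89). Vim, a mesenchymal filament gene, and Zeb2, a repressor of epithelial genes, are also in the list behind the score. For Atf3 they were Taf1c (0.91), Serpinb5 (0.88) and Cdcp1 (0.88). Serpinb5, the epithelial serpin maspin, ranged from 4.77 to 9.15. For Junb they were Fkbp8 (0.90), Dennd2d (0.88) and Psme3ip1 (0.88), and for Egr1 Rprd1a (0.89), Rsbn1 (0.88) and Tmed8 (0.86). For Ier3 the nearest was Plk3 (0.90), another immediate early gene, with Slc20a1 (0.85) and Smim24 (0.84) after it. For Fosb they were Zfp770 (0.86), Sh2b1 (0.85) and Ankrd1 (0.84), and for Fosl1 Cept1, Gstcd and Tpm3 (0.87, 0.87 and 0.86).

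The promoters were read for the sites through which these genes are switched on, since several members moved together. A window of 250 bases before to 50 after the start was at hand for 8 of 10 members (RefSeq, GRCm38.p6; Fosl1 and Egr1 had none). Searched on both strands were TGANTCA (the AP-1 site), TGANNTCA (the longer site of Jun and ATF dimers), TGACG (the core of the site of CREB and ATF proteins, which overlaps TGANNTCA where its N letters are C and G) and the CArG box of serum response factor. TGACG was in 4 members, Fos, Fosb, Junb and Atf3, beside 20.8% of 32851 promoters. TGANNTCA was in Jun and Jund, beside 14.1%. TGANTCA was in 0 of the 8 (7.81%), CArG in 0 (1.63%), TATAA in 3 (24.9%) and CCAAT in 4 (37.4%). Sequence farther than 250 bases before the start was not searched, so a count of 0 does not show that these genes lack the site. Of Jun, Egr1 and Fosl1, which were higher at high score, only Jun had a window. Whether the matches sort by direction could thus not be assessed. Jund, which ran with Junb (r = 0.81), had TGANNTCA as Jun did. Fos and Fosb had TGACG like Junb and Atf3, and their r with the score was 0.07 and -0.15. The 30 bases around each match are shown on the gene's strand, with the matched letters in capitals and the offset from the start in bases.
Fos, chr12:85473748-85473777 (+), at -129: tggggcgtagagtTGACGacagagcgcccg
Fos, chr12:85473811-85473840 (+), at -66: cagttccgcccagTGACGtaggaagtccat
Fosb, chr7:19310089-19310118 (-), at -60: atggagttgcgggTGACGcaagcgcggggg
Junb, chr8:84978838-84978867 (-), at -106: cgcttcctgacagTGACGcgagccgcctcc
Atf3, chr1:191183324-191183353 (-), at -7: attaatagcattaCGTCAgcctgggattgg
Jun, chr4:95052249-95052278 (-), at -45: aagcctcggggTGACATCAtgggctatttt
Jun, chr4:95052202-95052231 (-), at 2: cagataagtgtTGAGCTCAggctggataag
Jund, chr8:70697667-70697696 (+), at -61: cgttgaggcagTGAAATCAccctcagtctt
In Atf3 the match lies on the other strand and is read as CGTCA. A match is a stretch of letters, not a site shown to be bound in these cells.

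Among genes that act with the members, no gene passed the test in any comparison in 7 lists (limma). For the dimer partners and inhibitors of AP-1, 20 genes were measured, and at an unadjusted p under 0.05 the counts were 0 with over-expression, 0 with sh74 and 3 with sh75. Over all genes that threshold was met by 2.56%, 7.22% and 8.45% in these 3 comparisons, and the counts of each list below are to be read against those shares. Their median changes were 0.02, -0.02 and 0.00, beside 0.01, 0.00 and 0.00 over all genes. Atf4, the factor of the amino acid response, was 8.80 ± 0.28 with sh75 and 9.29 ± 0.23 with shScramble (SD, n = 3 each), a change of -0.50 ± 0.19 (SE; limma adjusted p = 0.527). Nfe2l2, which encodes the antioxidant regulator NRF2, was 10.48 ± 0.02 in CNOT7 over-expression and 10.22 ± 0.28 in vector control cells (limma adjusted p = 0.9999).

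The other immediate early transcription factors gave the same picture, with 24 genes measured, 1, 2 and 4 at an unadjusted p under 0.05, and medians of 0.09, 0.00 and 0.11 for over-expression, sh74 and sh75. Arid5b was 10.80, 10.95 and 10.71 with sh75, against 9.43, 10.12 and 10.17 with shScramble. The change was 0.91 ± 0.23 (SE; limma adjusted p = 0.288), and the samples did not overlap, as in 13.5% of all probe sets. Egr3, a relative of Egr1, was 7.72 and 7.34 with sh74, against 7.05, 6.97 and 7.23 with shScramble (change 0.45 ± 0.13, limma adjusted p = 0.477). Klf2 was 8.08 ± 0.46 in CNOT7 over-expression and 7.69 ± 0.04 in vector control cells (limma adjusted p = 0.9999).

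Of 28 other immediate early and AU-rich transcripts, 2, 0 and 3 had an unadjusted p under 0.05, and the medians were -0.09, -0.14 and -0.04. Gadd45b, a stress gene, was 7.50, 7.06 and 7.54 with sh75 and 7.68 and 8.60 with sh74, against 10.27, 9.26 and 8.10 with shScramble. The sh75 samples lay below all shScramble samples by a mean of 1.84 (log2 change -1.84 ± 0.52, limma adjusted p = 0.362), within a control group that itself spanned more than 2 log2 units. In 13.5% of all probe sets the sh75 and shScramble samples did not overlap. Btg2, an antiproliferative gene, was 6.57 ± 0.24 with sh75 and 6.08 ± 0.10 with shScramble (change 0.49 ± 0.14, limma adjusted p = 0.364). Nfkbia, the inhibitor of NF-κB, was 9.11 ± 0.09 in CNOT7 over-expression and 9.54 ± 0.20 in vector control cells (change -0.43 ± 0.17, limma adjusted p = 0.9999).

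Of 21 genes of MAP kinase signaling to AP-1, 0, 4 and 6 had an unadjusted p under 0.05 with over-expression, sh74 and sh75, and the medians were 0.03, 0.11 and 0.14. Map2k4 had the smallest adjusted p of the listed genes. Map2k4 encodes a kinase that activates JNK, which phosphorylates c-Jun. It was 9.97 and 9.77 with sh74 and 9.91, 9.78 and 9.94 with sh75, against 9.32, 9.27 and 9.46 with shScramble. All 5 hairpin samples lay above all 3 shScramble samples, and in 3.93% of all probe sets these groups did not overlap. The changes of Map2k4 were 0.52 ± 0.10 (SE) for sh74, 0.53 ± 0.09 for sh75 and 0.52 ± 0.08 for their mean (limma adjusted p = 0.178, 0.062 and 0.111). Its values were 9.73, 9.71 and 9.77 in CNOT7 over-expression and 9.84, 9.55 and 9.69 in vector control cells, all of them above shScramble as well. Neither Map2k4 nor Rps6ka3 passed. Rps6ka3, the ERK-activated kinase RSK2, was 10.17 and 9.67 with sh74 and 9.61, 9.44 and 9.41 with sh75, against 9.14, 9.23 and 9.30 with shScramble (mean change 0.48 ± 0.11, limma adjusted p = 0.426).

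Of 15 MAP kinase phosphatases and feedback genes, 0, 0 and 2 had an unadjusted p under 0.05, and the medians were 0.17, 0.02 and 0.25. Spry2 was 8.35 ± 0.15 with sh75 and 7.76 ± 0.22 with shScramble (change 0.58 ± 0.17, limma adjusted p = 0.372), and Dusp6, the ERK phosphatase, was 10.99 ± 0.25 with sh75 and 10.24 ± 0.26 with shScramble (0.74 ± 0.33, 0.593). Dusp1, a phosphatase of JNK and p38 singled out after its values were seen, followed Jun (r = 0.84) and Egr1 (r = 0.82) over the 14 samples. It was 8.38, 10.47 and 10.44 in the sh75 samples in which Egr1 was 6.64, 8.90 and 8.87.

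Of 22 known AP-1 target genes, 1, 2 and 0 had an unadjusted p under 0.05, and the medians were 0.04, 0.09 and -0.05. Mmp1a, a collagenase, was 6.99 and 5.22 with sh74, against 4.59, 4.82 and 4.82 with shScramble (change 1.36 ± 0.38, limma adjusted p = 0.445), so that 1 sample carried most of the difference and shScramble lay below the olfactory limit. Itgb4 was 9.91 and 9.62 with sh74, against 9.11, 9.13 and 9.15 with shScramble (0.64 ± 0.25, 0.634), while 1 of 3 sh75 samples (8.46) was the lowest of the series. Of 11 AU-rich element binding proteins, 0, 1 and 1 had an unadjusted p under 0.05, and the medians were 0.01, -0.03 and -0.02. Zfp36l2, a relative of ZFP36, was 11.47 and 11.62 with sh74 and 11.32, 11.51 and 11.12 with sh75, against 10.98, 11.01 and 10.97 with shScramble (mean change 0.44 ± 0.13, limma adjusted p = 0.533). All 5 hairpin samples lay above the 3 controls, and in 3.93% of all probe sets these groups did not overlap.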

How the data were processed

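RNA from 14 samples was hybridized to single-color Affymetrix mouse gene arrays. Per the submitters' processing notes, the authors ran RMA in the R package oligo (background correction, quantile normalization, summary by probe set) and deposited log2 values, which were used as deposited. Versions and the genome build were not given in the sources used here. Of 35556 probe sets, 21789 had exactly 1 gene symbol in the platform annotation and were tested, while 1621 with several symbols and 12146 with none were left out. Array medians lay between 6.31 and 6.38. The number of arrays limits the precision, and the depth of reads does not apply.

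Groups came from the sample labels. One linear model held the 5 group means and gave every comparison as a contrast, with moderated variances (R 4.3.3 with limma 3.58.1; 9 residual and 2.09 prior degrees of freedom). P-values were two-sided and adjusted by Benjamini-Hochberg over 21789 probe sets. The mean of both hairpins weights sh74 and sh75 equally. Permutation tests of correlations used 100000 resamples (numpy 2.4.6). The slope on the marker score came from the same model with the score as a covariate, added after the data were seen. These procedures were tested on simulated data. The members and lists were chosen with earlier results of these data known. Named were Cnot7, all members, the 2 genes of each list with the smallest p per comparison and a higher group mean of at least 6, chosen for the text from among these, and the 3 genes nearest to each member that spanned at least 1 log2 unit. Some of the listed genes are not reported here. Alternatives were the methods' t-test, other variance priors, array centering, array weights, a filter on dim probe sets, blocks from the sample titles and leaving out each sample.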

Additional observations from a re-analysis of the deposited data

Results flagged for a closer look

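Fos was flagged because every sample lay on one side of its control mean in one arm and on the opposite side in the other. Its change was 0.080 with CNOT7 over-expression against vector control (each sample 0.06 to 0.10 above the control mean). With sh74 against shScramble the change was -0.27 (each sample -0.32 to -0.21 from the control mean). The over-expression samples overlapped the vector control samples, as they did for Fosb. The sh75 samples did not follow sh74, and the difference between over-expression and sh74 itself was not tested. Fosb was flagged for the same reason, with 0.47 for CNOT7 over-expression against vector control (samples 0.01 to 0.91) and -0.38 for sh75 against shScramble (samples -0.81 to -0.15). The difference between those 2 changes was not tested, but the over-expression change minus the mean hairpin change was 0.71 (limma adjusted p = 0.9996). With 10 members and several pairs of comparisons examined, some such patterns arise by chance.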

How the results depend on the processing

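No member passed the threshold in any refit (the smallest limma adjusted p was 0.281), and of 500 refitted changes other than those leaving out a sample 481 kept their sign. With array weights, the sign turned for Fosl2 in the over-expression change minus the hairpin change (0.047), and for Jun (0.15), Junb (-0.11) and Atf3 (-0.31) in vector control against shScramble. Leaving out each sample in turn turned the sign of 41 of 70 changes in at least 1 refit, with these ranges. For CNOT7 over-expression against vector control they were Fosl1 -0.18 to 0.23, Fosl2 -0.16 to 0.13, Jund -0.33 to 0.068, Egr1 -0.11 to 0.35 and Ier3 -0.41 to 0.12. For sh74 against shScramble they were Fosb -0.26 to 0.048, Fosl1 -0.27 to 0.56, Fosl2 -0.57 to 0.17, Jun -1.21 to 0.73, Junb -0.48 to 0.24, Egr1 -0.54 to 0.76 and Atf3 -1.05 to 0.0496, where the lone sh74 sample is assumed to vary like the other groups. For sh75 against shScramble they were Fosl1 -0.38 to 0.0088, Fosl2 -0.016 to 0.25, Junb -0.32 to 0.026, Jund -0.19 to 0.043 and Ier3 -0.39 to 0.13. For the mean of both hairpins against shScramble they were Fos -0.12 to 0.074, Fosl1 -0.23 to 0.19, Fosl2 -0.22 to 0.15, Jun -0.32 to 0.65 and Junb -0.31 to 0.054. For the over-expression change minus the hairpin change they were Fosl1 -0.15 to 0.27, Fosl2 -0.20 to 0.17, Jun -0.32 to 0.64, Junb -0.45 to 0.034, Jund -0.068 to 0.33, Atf3 -0.29 to 0.58 and Ier3 -0.069 to 0.46. For CNOT7 over-expression against both hairpins they were Fos -0.029 to 0.13, Fosl2 -0.28 to 0.10, Jun -0.38 to 0.59, Junb -0.32 to 0.11, Jund -0.12 to 0.28, Egr1 -0.051 to 0.65 and Atf3 -0.11 to 0.44. For vector control against shScramble they were Fos -0.15 to 0.036, Jun -0.24 to 0.13, Junb -0.13 to 0.34, Jund -0.14 to 0.091 and Atf3 -0.42 to 0.45. Fosb (0.25 to 0.70 for over-expression, -0.50 to -0.17 for sh75), Egr1 (0.38 to 1.51 for sh75) and Atf3 (-1.28 to -0.41 for sh75) kept their sign but not their size.

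The counts of probe sets called over the whole array were small and moved with the settings; the causes were not tested. Leaving out each sample gave 0 to 1 calls for over-expression, 1 to 122 for sh74 (2 with all samples), 6 to 22 for sh75 (20), 0 to 89 for the mean of both hairpins (4) and 2 to 140 for CNOT7 over-expression against both hairpins (9). The highest of these (122, 89 and 140) were without sh74 replicate 2, the 6 without sh75 replicate 1 or shScramble replicate 2, and the 1 for over-expression without vector control replicate 3. With only the groups compared in the fit, the counts were 0 for sh74, 3 for sh75, 0 for both hairpins and 0 for CNOT7 over-expression against both hairpins, and the methods' t-test called 0 after Benjamini-Hochberg in each. With a trended and robust prior sh74 had 1, with array weights sh74 had 1, sh75 had 35 and vector control against shScramble had 1. CNOT7 over-expression against both hairpins had 22 with centered arrays and 19 without dim probe sets. Each member has 1 probe set, so another choice of probe set gave no other value.

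Sample titles end in a number and a digit whose meaning is not stated. For samples of the same number in different groups, deviations from the group means had r from -0.30 to 0.59 (13 pairs, median 0.09, 5 above 0.1). For samples of different number r ran from -0.55 to 0.55 (65 pairs, median -0.10, 23 above 0.1). Whether samples of the same number shared a culture or a batch was not tested. With the number as a block sh75 had 2 calls, and Junb (0.047) and Jund (0.091) turned sign for sh75. With the digit as a block sh74 had 1 call, both hairpins 0 and CNOT7 over-expression against both hairpins 4, and the sign turned for Fos (0.001) and Fosl1 (0.017) with both hairpins and for Atf3 (-0.0066) in the over-expression change minus the hairpin change. Contrasts that the number block left inestimable were not run.

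With the marker score held, sh74 had 11 calls and CNOT7 over-expression against both hairpins 19, and the sign turned for Fosl1 (-0.056) and Egr1 (-0.090) with over-expression, Junb (0.022) and Egr1 (-0.13) with sh74, Junb (0.11) and Jund (0.054) with sh75, Jun (-0.16) and Junb (0.067) with both hairpins, and Fosl2 (0.016) and Atf3 (-0.094) in the over-expression change minus the hairpin change. The count of members that passed against the score was 4 (5.01% of all probe sets), and 0 to 4 without 1 sample (1.68% over all probe sets at its lowest). It was 0 without the 2 samples farthest from the median score and 0 without the lowest and the highest score, which gave identical slopes, with 0.633% over all probe sets. The slopes there were 0.32 for Jun, 0.25 for Fosl1, -0.29 for Junb and -0.36 for Atf3, and Fos (0.053) and Fosb (0.024) turned sign. Both refits leave 1 sh74 sample, which its group mean takes up, so they are the same fit and not separate checks. With centered arrays Fosl1 missed the threshold (limma adjusted p = 0.0509). Slopes ranged without 1 sample from 0.32 to 0.47 for Jun, 0.20 to 0.25 for Fosl1, -0.28 to -0.22 for Junb, -0.47 to -0.28 for Atf3, -0.0495 to 0.025 for Fos and -0.092 to 0.0036 for Fosb, where Fos and Fosb turned sign. The count of member pairs that passed was 5, and 1 to 7 without 1 sample, 1 without the 2 samples farthest from the median score and 2 without the lowest and the highest. In the first of these r was 0.71 for Fosl2 with Jun, 0.74 for Fosl2 with Ier3, 0.79 for Junb with Atf3 and 0.61 for Jun with Egr1. These refits were chosen after the data were seen.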
